A study of Mus musculus with 6 samples.

Results

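The genes of MHC class I antigen processing described here are H2-M3, B2m, Tap1, Tap2, Tapbp, Psmb8, Psmb9, Psmb10, Erap1 and Nlrc5. They were chosen by the gene symbol in the array's probe annotation, and every probe set that named one of them alone was kept. They make up 10 of the 18193 genes and 17 of the 34945 single-gene probe sets measured on 6 Affymetrix Mouse430_2 arrays. All 10 were measured, and no filter on low values was applied. A probe set is a group of short probes that together read the 3′ end of a transcript, and values are log2 RMA units, in which a difference of 1 is a doubling.

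The MN1VP16 group (n = 2 arrays) and the MN1 group (n = 2) were GFP+ bone marrow cells carrying pSF91-MN1VP16-IRES-GFP or pSF91-MN1-IRES-GFP, and the Gr1Mac group (n = 2) was Gr1+/CD11b+ bone marrow. MN1 is a transcriptional cofactor whose forced expression causes myeloid leukaemia in mice, VP16 is the name of a viral transcriptional activator, and the labels describe neither insert further. The labels give strain C57BL6 and the same protocol texts to all 6 samples, Gr1Mac included. In these texts the donor mice had a 4-day 5-fluorouracil treatment (150 mg/kg), and their marrow was held for 48 hours with IL6, IL3 and SCF, was transduced, and was given to syngeneic mice, which the series text calls lethally irradiated, with sorting at 4 weeks. The series text names only the MN1 and MN1VP16 constructs for the transduction, by irradiated E86 producer cells and protamine sulfate, where the treatment text names viral supernatants. Beyond the shared texts, nothing says whether the Gr1Mac cells came from transplanted mice, whether mice were pooled, which promoter drove the inserts, or whether 1 mouse gave both arrays of a group. The p-values therefore cover the array-to-array spread alone, and within MN1 and MN1VP16 that spread may be technical.

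Class I molecules carry short peptides from inside the cell to its surface, where CD8+ T cells read them. Proteasomes cut the peptides, the Tap1-Tap2 transporter moves them into the endoplasmic reticulum, Erap1 trims them there, and Tapbp (tapasin) holds the empty class I molecule next to the transporter until a peptide fits. Interferon-gamma is known to raise many of these genes, in part through Nlrc5, which joins the RFX, CREB/ATF and NF-Y factors on X and Y boxes in front of class I genes.

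Some differences between arrays have no label. Xist, which coats and silences the inactive X chromosome of females, read 5.53 and 5.84 on the MN1VP16 arrays, 12.36 and 12.59 on the MN1 arrays, and 10.44 and 5.83 on Gr1Mac arrays 1 and 2, and the Y-linked gene Kdm5d was high exactly where Xist was low. The sex of the cells and the construct cannot be told apart between MN1VP16 and MN1. The 2 Gr1Mac arrays were opposite in this pattern (Kdm5d 3.11 and 7.37). They therefore did not read the same cells, and the spread between them is not technical alone. The 36 spike control features averaged 10.19 to 10.43 on both MN1 arrays and MN1VP16 array 1, and 9.51 to 9.88 on MN1VP16 array 2 and both Gr1Mac arrays. Mn1 itself read 3.63 to 4.92 on all 6 arrays and was called in no comparison, so it gives no check of the group labels. Readings at or under 5.84, the highest of Xist on an array high in Y-linked genes, may be background. In these bulk samples, fewer cells of a type and less RNA per cell cannot be told apart.

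Promoter sequence from RefSeq (GRCm38.p6, 250 bases before to 50 after the annotated start) was matched by symbol for 8 of the 10 genes, all but Tap2 and Nlrc5. Those of H2-M3, B2m and Tapbp are printed because these genes were called between MN1VP16 and MN1, and that of Tap1 because Psmb9 starts from the same stretch on the other strand. All 4 are on the plus strand, at chr17:37269984-37270283 for H2-M3, chr2:122147437-122147736 for B2m, chr17:33919228-33919527 for Tapbp and chr17:34187306-34187605 for Tap1. Capitals mark, on either strand, the core of the X2 box (TGACG), the inverted CCAAT box of NF-Y (ATTGG), the interferon-stimulated response element core (GAAANNGAA) and the STAT site GAS (TTCNNNGAA).
H2-M3: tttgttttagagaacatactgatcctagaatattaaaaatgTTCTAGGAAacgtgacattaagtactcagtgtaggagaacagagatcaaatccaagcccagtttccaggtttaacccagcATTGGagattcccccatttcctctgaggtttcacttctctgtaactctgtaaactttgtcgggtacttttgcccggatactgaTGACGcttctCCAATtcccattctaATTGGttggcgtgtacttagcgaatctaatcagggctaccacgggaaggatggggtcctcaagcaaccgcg
B2m: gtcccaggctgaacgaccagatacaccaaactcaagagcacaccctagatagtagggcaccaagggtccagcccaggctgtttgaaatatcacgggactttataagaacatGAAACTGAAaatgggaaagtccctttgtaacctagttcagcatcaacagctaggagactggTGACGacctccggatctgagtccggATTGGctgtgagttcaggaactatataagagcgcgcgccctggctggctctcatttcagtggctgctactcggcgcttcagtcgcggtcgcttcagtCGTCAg
Tapbp: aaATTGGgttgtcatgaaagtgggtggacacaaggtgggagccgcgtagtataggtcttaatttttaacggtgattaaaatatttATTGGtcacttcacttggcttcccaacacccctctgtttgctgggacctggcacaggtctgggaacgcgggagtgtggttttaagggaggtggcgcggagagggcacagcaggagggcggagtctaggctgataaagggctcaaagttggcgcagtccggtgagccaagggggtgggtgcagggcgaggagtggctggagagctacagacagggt
Tap1: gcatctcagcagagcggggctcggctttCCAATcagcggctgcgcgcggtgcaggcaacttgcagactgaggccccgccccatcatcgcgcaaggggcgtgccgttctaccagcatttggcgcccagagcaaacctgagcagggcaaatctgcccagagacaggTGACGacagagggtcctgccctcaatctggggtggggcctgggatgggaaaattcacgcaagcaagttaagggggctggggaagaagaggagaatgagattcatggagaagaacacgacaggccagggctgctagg

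H2-M3 and B2m both had the X2 core ahead of an inverted CCAAT box within a short distance of the start. In H2-M3 the X2 core lay at positions -46 to -42 from the start and CCAAT boxes at -36 to -32 and -21 to -17. In B2m the X2 core lay at -78 to -74 and the CCAAT box at -53 to -49, with an interferon element at -139 to -131. Tap1 and Psmb9 shared 275 bases, chr17:34187306-34187580, and so the same X2 core and CCAAT box. In Tap1 the CCAAT box lay at -222 to -218, ahead of the X2 core at -86 to -82 and farther from it than in H2-M3 or B2m. The X2 core and the CCAAT box were both present in 4 of the 8 promoters (H2-M3, B2m, Tap1, Psmb9) and in 7.73% of 32851 promoters of the same length. The 4 count the sites shared by Tap1 and Psmb9 once for each gene. Taken singly, the X2 core was in 4 of the 8 (20.8% of all promoters), the CCAAT box in 5, with Tapbp added (37.4%), the interferon element in B2m and Erap1 (8.56%), and the GAS site in H2-M3 and Psmb8 (8.3%). The cores are short, and a match describes letters, not a bound site.

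The first comparison asked how class I processing genes differed between cells with the VP16 construct and cells with MN1. H2-M3, B2m and Tapbp rose in MN1VP16 cells and no member fell. H2-M3 averaged 10.08 ± 0.21 in MN1VP16 cells and 8.32 ± 0.027 in MN1 cells (SD, n = 2 each). B2m averaged 14.35 ± 0.36 in MN1VP16 cells and 13.20 ± 0.037 in MN1 cells, and Tapbp 11.59 ± 0.11 in MN1VP16 cells and 10.43 ± 0.15 in MN1 cells. The 3 called members of 10 stand beside 1.15% of all genes called higher and 2.7% called lower at limma's adjusted p under 0.05. The mean was higher in MN1VP16 cells for 9 of the 10 members, against 53.4% of all genes.

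**Figure D1:**
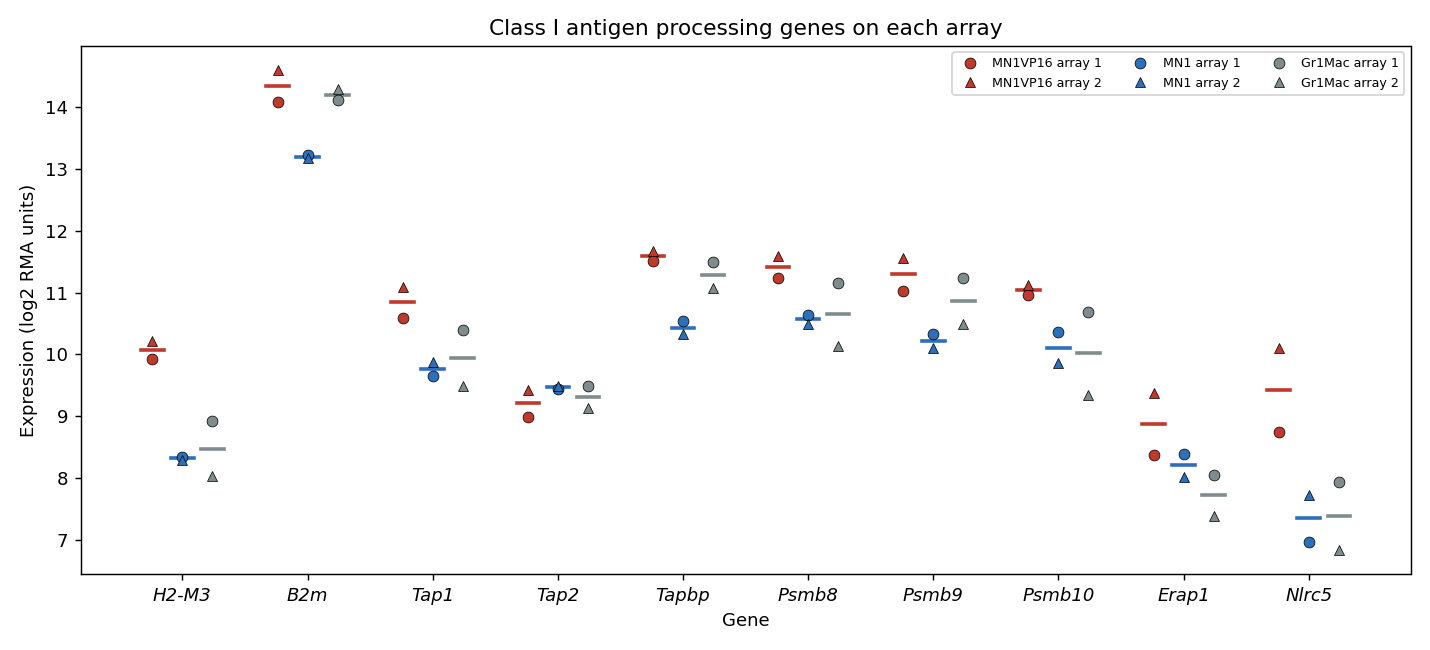
Expression of the 10 genes in log2 RMA units on each of the 6 arrays, with points for single arrays and bars for group means, MN1VP16 on the left of each gene, then MN1 and Gr1Mac. Both MN1VP16 arrays lie above both MN1 arrays for 8 genes, arrays overlap for Erap1, and Tap2 lies lower in MN1VP16.

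The chains come first. H2-M3, a class I molecule that presents N-formylated peptides such as those of bacteria and mitochondria, read 9.93 and 10.22 on the MN1VP16 arrays, 8.34 and 8.30 on the MN1 arrays, and 8.92 and 8.03 on the Gr1Mac arrays. Both MN1VP16 arrays were the highest, while MN1 lay inside the range of Gr1Mac. The difference of MN1VP16 from MN1 was 1.76 ± 0.31 (SE), a 3.38-fold rise with a 95% interval of 2.02 to 5.67 (limma adjusted p = 0.0424). Against Gr1Mac it was 1.60 ± 0.31, or 3.04-fold with an interval of 1.81 to 5.09 (limma adjusted p = 0.0413), and MN1 minus Gr1Mac was -0.15 ± 0.31 (limma adjusted p = 0.758).

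B2m, the light chain that every classical class I molecule needs to reach the surface, read 14.09 and 14.60 in MN1VP16, 13.22 and 13.17 in MN1, and 14.11 and 14.29 in Gr1Mac. MN1 was the low group, and MN1VP16 and Gr1Mac overlapped. The rise of MN1VP16 over MN1 was 1.15 ± 0.21, or 2.22-fold with an interval of 1.55 to 3.18 (limma adjusted p = 0.0476). MN1 fell below Gr1Mac by 1.01 ± 0.21 (limma adjusted p = 0.0166), and MN1VP16 minus Gr1Mac was 0.14 ± 0.21 (limma adjusted p = 0.775). A second B2m probe set read 13.96 and 14.21 in MN1VP16, 12.91 and 12.84 in MN1, and 13.71 and 14.02 in Gr1Mac, with the same low group, and was called between MN1VP16 and MN1 when each probe set was fitted as its own feature (difference 1.21, limma adjusted p = 0.0335, beside 0.913% of all probe sets called higher).

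Tapbp, or tapasin, read 11.51 and 11.67 in MN1VP16, 10.54 and 10.33 in MN1, and 11.50 and 11.08 in Gr1Mac. MN1 was again low on both arrays, and MN1VP16 lay just above Gr1Mac without a called difference (0.30 ± 0.20, limma adjusted p = 0.448). The rise of MN1VP16 over MN1 was 1.16 ± 0.20, or 2.23-fold with an interval of 1.59 to 3.14 (limma adjusted p = 0.0425), and MN1 fell below Gr1Mac by 0.86 ± 0.20 (limma adjusted p = 0.0234). Its second, dimmer probe set kept the order of the groups, at 7.37 and 7.46 in MN1VP16, 6.53 and 6.47 in MN1, and 7.55 and 7.12 in Gr1Mac, with an uncalled difference of 0.92 between MN1VP16 and MN1 (limma adjusted p = 0.0601, probe set fit).

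Tap1 and Tap2 pair to form the peptide transporter. Tap1 read 10.59 and 11.09 in MN1VP16, 9.66 and 9.88 in MN1, and 10.39 and 9.48 in Gr1Mac. Both MN1VP16 arrays were the highest, yet the difference from MN1, 1.07 ± 0.34, was not called (limma adjusted p = 0.135). Tap2 read 8.997 and 9.43 in MN1VP16, 9.45 and 9.49 in MN1, and 9.49 and 9.13 in Gr1Mac. It was the one member whose MN1VP16 mean was the lowest of the groups, and no pair of groups differed by a call (MN1VP16 minus MN1 -0.26 ± 0.22, 95% interval -0.78 to 0.27). Tap1 has 3 further probe sets, all between 2.95 and 4.99 on every array and so in the range of background.

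The 3 catalytic subunits of the immunoproteasome, which take the place of Psmb5, Psmb6 and Psmb7 in cells that present antigen, all lay higher on both MN1VP16 arrays than on both MN1 arrays, with no call. Psmb8 read 11.24 and 11.60 in MN1VP16, 10.63 and 10.50 in MN1, and 11.16 and 10.14 in Gr1Mac. Psmb9 read 11.02 and 11.57 in MN1VP16, 10.33 and 10.102 in MN1, and 11.23 and 10.49 in Gr1Mac. Psmb10 read 10.95 and 11.12 in MN1VP16, 10.36 and 9.86 in MN1, and 10.69 and 9.34 in Gr1Mac. Gr1Mac array 1 was close to MN1VP16 and Gr1Mac array 2 close to MN1 for Psmb8 and Psmb10. The differences of MN1VP16 from MN1 were 0.85 ± 0.34 for Psmb8, 1.08 ± 0.31 for Psmb9 and 0.93 ± 0.44 for Psmb10 (limma adjusted p = 0.216, 0.112 and 0.287). A second Psmb8 probe set, of a kind that can cross-hybridise, read 6.38 and 6.40 in MN1VP16, 5.94 and 5.86 in MN1, and 5.61 and 5.58 in Gr1Mac, which is close to background. Fitted as its own feature it was called higher in MN1VP16 than in Gr1Mac (limma adjusted p = 0.0365, beside 3.12% of all probe sets called higher), and no size is given because both Gr1Mac readings were under 5.84.

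The constitutive counterparts had slightly lower means in MN1VP16. Psmb5, Psmb6 and Psmb7 differed by -0.21, -0.34 and -0.16 between MN1VP16 and MN1, none called (limma adjusted p = 0.57, 0.461 and 0.613). Set against its counterpart on each array and centred over the 6 arrays, Psmb8 over Psmb5 was 0.34 and 0.76 in MN1VP16, -0.44 and -0.59 in MN1, and 0.28 and -0.35 in Gr1Mac. Psmb9 over Psmb6 was 0.18 and 0.84 in MN1VP16, -0.74 and -1.08 in MN1, and 0.47 and 0.34 in Gr1Mac. Psmb10 over Psmb7 was 0.47 and 0.74 in MN1VP16, -0.15 and -0.82 in MN1, and 0.57 and -0.81 in Gr1Mac. MN1VP16 exceeded MN1 without overlap in all 3 ratios, by 1.07, 1.43 and 1.09 log2 units, and no test was run on the ratios.

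**Figure D2:**
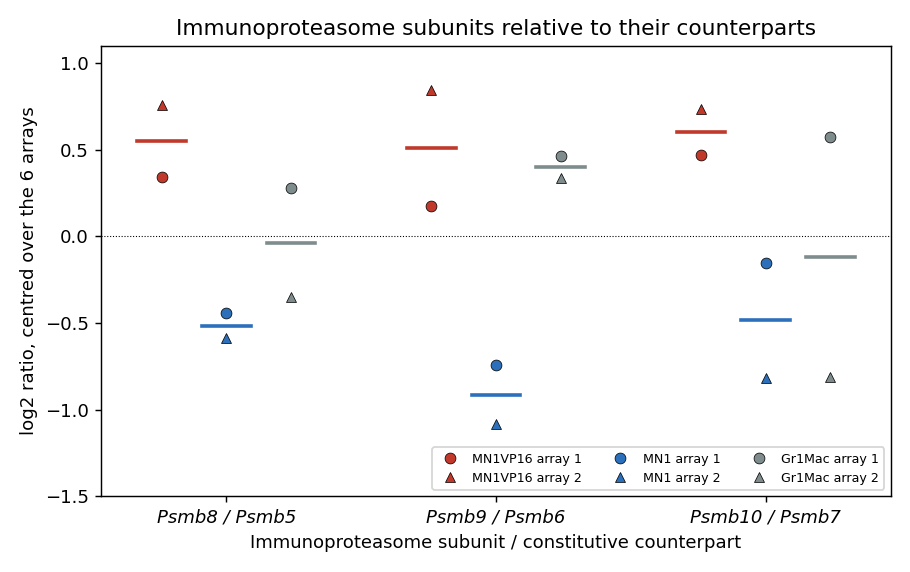
log2 ratio of each immunoproteasome subunit to its constitutive counterpart on each array, centred over the 6 arrays, with group means as bars. MN1VP16 lies above MN1 for all 3 pairs (differences 1.07, 1.43 and 1.09), and the Gr1Mac arrays spread widely for Psmb10 over Psmb7.

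Erap1, the aminopeptidase that trims peptides in the endoplasmic reticulum, read 8.38 and 9.38 in MN1VP16, 8.39 and 8.02 in MN1, and 8.05 and 7.40 in Gr1Mac. MN1VP16 array 1 matched MN1 array 1, so only MN1VP16 array 2 stood out, and neither the difference from MN1 (0.68 ± 0.39, limma adjusted p = 0.381) nor that from Gr1Mac (1.16 ± 0.39, limma adjusted p = 0.141) was called. A second probe set read 6.56 and 7.37 in MN1VP16, 6.31 and 6.06 in MN1, and 5.24 and 5.94 in Gr1Mac, again with MN1VP16 array 2 at the top.

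Nlrc5, the class I transactivator, read 8.74 and 10.11 in MN1VP16, 6.97 and 7.74 in MN1, and 7.94 and 6.83 in Gr1Mac. Both MN1VP16 arrays lay above all others, and they also differed most from each other. Its differences were the largest among the members, 2.07 ± 0.57 from MN1 and 2.04 ± 0.57 from Gr1Mac, and with that spread neither was called (limma adjusted p = 0.104 and 0.0953). MN1 and Gr1Mac overlapped (-0.03 ± 0.57).

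**Figure D3:**
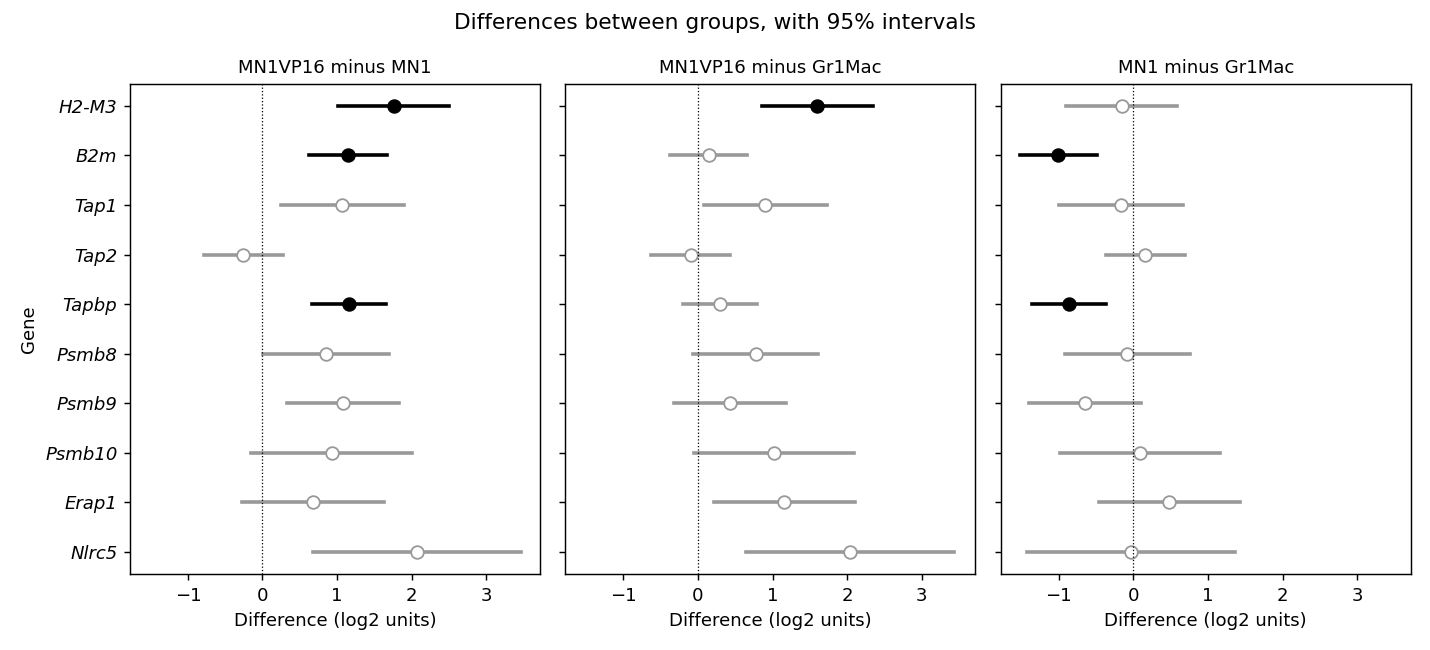
Differences between groups in log2 units with 95% intervals from the limma fit, for MN1VP16 minus MN1, MN1VP16 minus Gr1Mac and MN1 minus Gr1Mac. Filled black points passed adjusted p under 0.05: H2-M3, B2m and Tapbp in the first panel, H2-M3 in the second, B2m and Tapbp, both below 0, in the third.

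Over all members, the median difference of MN1VP16 from MN1 was 1.08 log2 units, against 0.03 over all genes. Both MN1VP16 arrays exceeded both MN1 arrays for 8 of 10 members (30.5% of all genes), and the reverse held for Tap2 (29.2%). At an unadjusted p under 0.05, 7 of 10 were higher (9.15% of all genes). The calls rested on few arrays: no member was called without MN1 array 1, MN1 array 2 or MN1VP16 array 2, and only B2m without MN1VP16 array 1. Each of these fits leaves 1 array in a group and calls another share of all genes than the full fit. Their calls therefore cannot be set beside those of the full fit. Here and below, leaving out an array of the group not compared drops no compared array. The 2 fits of that kind are the same fit, that of the 2 compared groups alone. A count of 6 fits with an array left out thus holds it more than once. Over all alternatives, B2m kept its call in 6 of 16 (limma adjusted p = 0.034 to 0.368). With MN1VP16 array 1 alone set against MN1, arrays with like spike control readings, H2-M3 differed by 1.61, B2m by 0.89 and Tapbp by 1.08, with no call (limma adjusted p = 0.13, 0.13 and 0.136), and the members' median was 0.83.

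Against Gr1Mac, the sorted granulocytes and monocytes, H2-M3 was the one member that rose in MN1VP16 cells (3.66% of all genes were called higher and 2.11% lower). The median difference was 0.84 (-0.0005 over all genes), 9 of 10 members lay above 0 (50% of all genes), and 7 did not overlap with the higher values in MN1VP16 (24.8%). Besides H2-M3, Tap1 (0.90 ± 0.34), Erap1 and Nlrc5 had an unadjusted p under 0.05, 4 of 10 in all against 13.4% of genes. H2-M3 lost its call when any array but Gr1Mac array 1 was left out (limma adjusted p = 0.083 to 0.139). Without Gr1Mac array 1, which leaves only arrays high in Y-linked genes in these groups, Psmb8 differed by 1.28 and Psmb10 by 1.69. The members' median was then 1.32. With MN1VP16 array 2 alone, whose spike controls averaged 9.51 beside 9.79 and 9.88 on the Gr1Mac arrays, the median was 1.03.

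In MN1 cells, B2m and Tapbp fell relative to Gr1Mac and no member rose, beside 12% of all genes called lower and 17.3% called higher. The members' median difference was -0.12, close to -0.06 over all genes, and 3 of 10 lay lower in MN1 without overlap (35.8% of all genes): B2m, Tapbp and Psmb9 (-0.65 ± 0.31, limma adjusted p = 0.178). Neither gene was called without MN1 array 1 (limma adjusted p = 0.0754 for B2m and 0.0711 for Tapbp) or without MN1 array 2 (0.101 and 0.147). Tapbp also lost its call without Gr1Mac array 1 (adjusted p = 0.0656) and B2m without Gr1Mac array 2 (adjusted p = 0.075), by limma. Among arrays high in Xist, the median for MN1 minus Gr1Mac array 1 was -0.59. The 3 comparisons share their groups and are not independent of each other.

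The members also moved together between arrays of one group. MN1VP16 array 2 read above array 1 for 10 of 10 members, where 47.8% of all genes did, with a median gap of 0.47 against 0.194 for the size of the gap over all genes. The gap was widest for Nlrc5 (1.37) and Erap1. Gr1Mac array 1 read above array 2 for 9 of 10, all but B2m, where 53.6% of genes did, and the median size of the gap was 0.81 against 0.278 over all genes. In MN1, array 1 was the higher for 7 of 10 (49.3% of all genes), and the median size of the gap was 0.22 against 0.158.

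A list of GTPases that interferon-gamma is known to induce gave values to set beside this spread. Its genes, 9 measured of 15 listed, averaged 7.57 and 9.51 on MN1VP16 arrays 1 and 2, 6.94 and 7.26 in MN1, and 7.50 and 7.21 in Gr1Mac. MN1VP16 array 2 stood apart from the 5 other arrays. Gbp2, a guanylate-binding GTPase chosen after its values were seen, read 9.30 and 11.48 in MN1VP16, 7.84 and 7.93 in MN1, and 9.85 and 9.22 in Gr1Mac. With all arrays, 1 of the 9 was called higher in MN1VP16 than in MN1, Gbp8 (limma adjusted p = 0.0358), whose readings of 3.23 to 4.69 were all within background. Without MN1VP16 array 1, 7 of the 9 were called higher, in a fit that called 0.896% of all genes higher. Without MN1VP16 array 2, 0 of the 9 were, in a fit that called 0.401% of all genes higher. Whether MN1VP16 array 2 held an interferon response, and what part that had in the members' differences, was not tested.

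**Figure D4:**
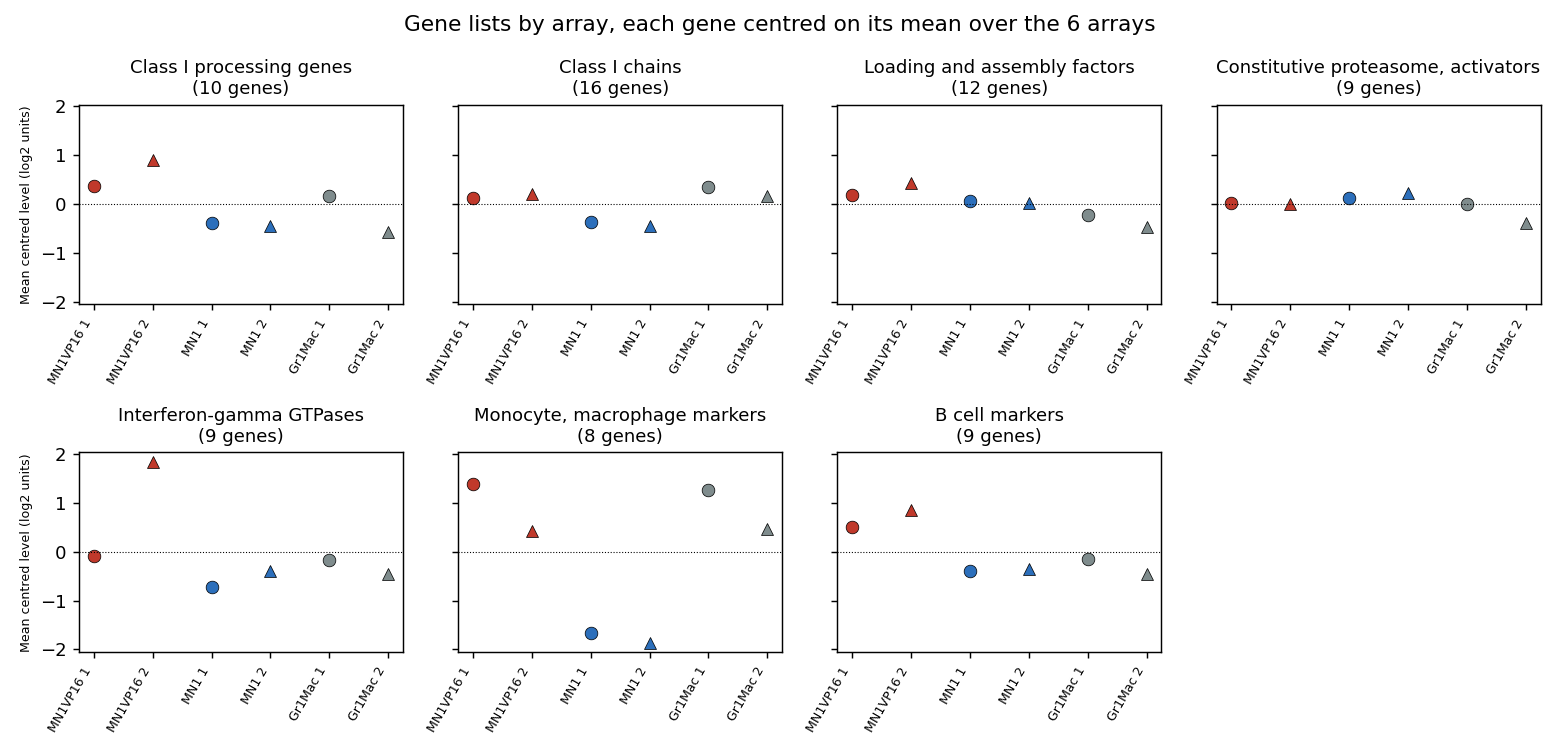
Mean level of each gene list on each array in log2 units, every gene centred on its mean over the 6 arrays, with MN1VP16 left of MN1 and Gr1Mac. The interferon-gamma GTPases reach 1.85 on MN1VP16 array 2 only, while the monocyte and macrophage markers are low on both MN1 arrays.

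On the receptor side of that pathway, of 9 measured genes of the interferon-gamma receptor pathway, 0 were called between MN1VP16 and MN1, with a median difference of 0.22. The kinase Jak1 fell in MN1VP16 relative to Gr1Mac (-0.98, limma adjusted p = 0.0282), and in MN1 Jak1 and the STAT inhibitor Pias1 both fell (-1.20 and -0.68, limma adjusted p = 0.00363 and 0.0239). With each array left out in turn, Jak1 kept its call in 6 of 6 fits for MN1. For MN1VP16 it kept it only without Gr1Mac array 1, and Pias1 lost it without either MN1 array or Gr1Mac array 2. Irf1, an interferon-induced transcription factor of class I genes chosen after its values were seen, read 10.51 and 11.77 in MN1VP16, 9.91 and 9.11 in MN1, and 11.31 and 10.87 in Gr1Mac, low in MN1 but uncalled (MN1VP16 minus MN1 1.62 ± 0.47, limma adjusted p = 0.115).

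Regulators of class I transcription that act with or beside Nlrc5 had 0 of 11 measured members called in either comparison of MN1VP16, with medians of -0.05 against MN1 and -0.04 against Gr1Mac. In MN1 relative to Gr1Mac, Rfx5, a subunit of the X box factor RFX, rose by 1.21 ± 0.18 (limma adjusted p = 0.0052). Rela, a subunit of NF-kappaB, fell by 0.60 (limma adjusted p = 0.0289), a call that held only without Gr1Mac array 2 when single arrays were left out, whereas that of Rfx5 held in 6 of 6 such fits. Ciita, the class II transactivator, was also called lower (limma adjusted p = 0.0308), with readings of 3.75 to 5.10, within background.

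Of the class I heavy chains and class I-like molecules, 16 of 30 listed genes were measured. Many of the heavy chains are near-identical copies whose probes can read each other, so single values are uncertain. In MN1VP16 relative to MN1, 4 rose and 0 fell, beside 1.15% of all genes called higher and 2.7% called lower. The 4 were H2-D1, H2-Q10, H2-T24 and Hfe. H2-Q10 has no reading once probe sets with the suffixes _a_at, _s_at and _x_at are left out. H2-D1, a classical class I chain, read 13.42 and 13.94 in MN1VP16, 12.62 and 12.18 in MN1, and 13.74 and 13.76 in Gr1Mac. Hfe, a class I-like regulator of iron uptake that binds B2m but presents no peptide, read 8.77 and 9.42 in MN1VP16, 7.28 and 6.82 in MN1, and 9.002 and 8.09 in Gr1Mac. As for B2m and Tapbp, MN1 was the low group in both. The differences of MN1VP16 from MN1 were 1.28 ± 0.24 for H2-D1 and 2.04 ± 0.38 for Hfe (limma adjusted p = 0.04996 and 0.0476), and 1.31 for H2-Q10 and 1.05 for H2-T24 (limma adjusted p = 0.0484 and 0.0408).

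The same 4 chains were called lower in MN1 than in Gr1Mac, beside 12% of all genes. They fell by 1.35, 3.66, 1.66 and 1.49 for H2-D1, H2-Q10, H2-T24 and Hfe (limma adjusted p = 0.0099, 0.00107, 0.00221 and 0.0301). These falls held in 6 of 6 fits with an array left out for H2-Q10 and H2-T24. That of H2-D1 was lost without MN1 array 2 or Gr1Mac array 2, and that of Hfe without either MN1 array or Gr1Mac array 1. H2-Q10 read 7.98 and 7.90 in MN1VP16, 6.91 and 6.35 in MN1, and 10.09 and 10.49 in Gr1Mac, and was the one chain called between MN1VP16 and Gr1Mac (-2.35, limma adjusted p = 0.014), a call lost without Gr1Mac array 2. H2-K1, the other classical chain, chosen after its values were seen, read 13.60 and 14.37 in MN1VP16, 12.73 and 12.57 in MN1, and 13.41 and 12.76 in Gr1Mac. It ranked like H2-D1 between the retroviral groups without a call (1.33 ± 0.33, limma adjusted p = 0.0842). Leaving out any 1 of the 6 arrays ended each of the 4 calls between MN1VP16 and MN1, with limma adjusted p up to 0.357, 0.403, 0.267 and 0.282 over the alternatives.

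**Figure D5:**
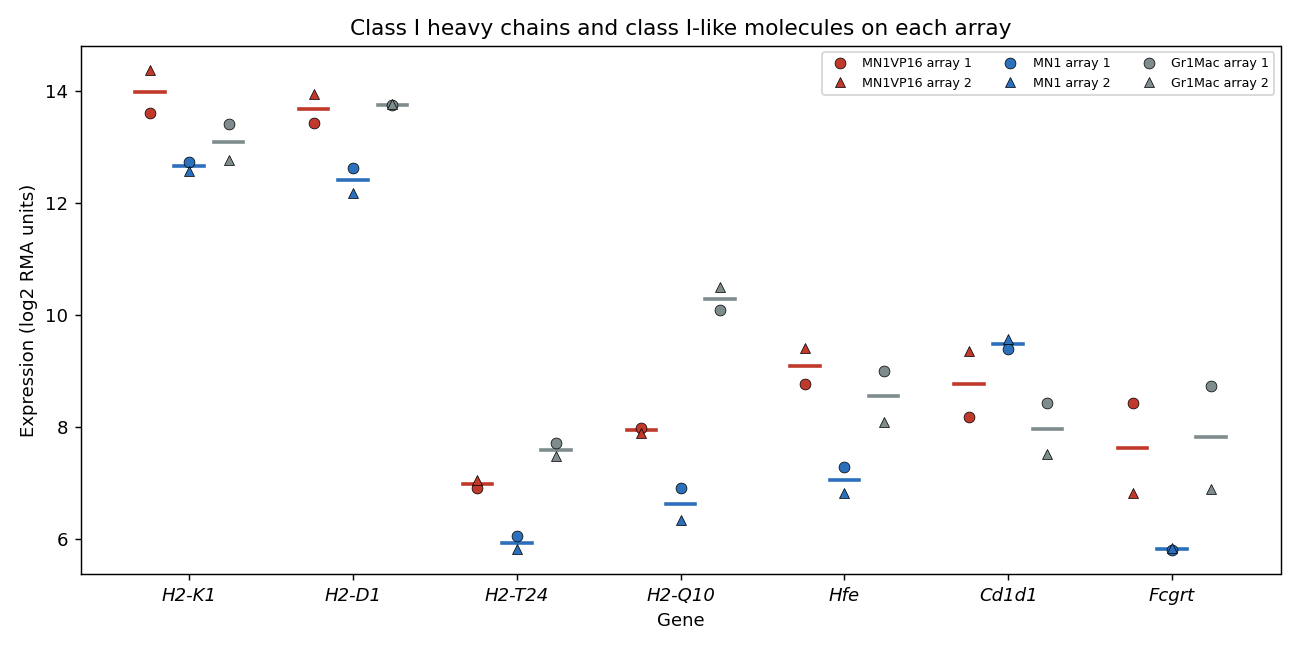
Expression of 7 class I heavy chain and class I-like genes in log2 RMA units on each array, with bars for group means, MN1VP16 left of MN1 and Gr1Mac. MN1 is the lowest group for H2-D1, H2-T24, H2-Q10 and Hfe, and H2-Q10 is highest in Gr1Mac at 10.09 and 10.49.

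Of the chaperones and other assembly factors of the endoplasmic reticulum, 12 measured of 12, MN1 had 5 called higher and 1 lower than Gr1Mac. Of all genes, 17.3% were called higher there and 12% lower. In MN1VP16 against Gr1Mac 3 were called higher and 0 lower (3.66% and 2.11% of all genes). Tmed10, a cargo receptor of early secretory transport, was the 1 gene of this list called between MN1VP16 and MN1 (1.15% of all genes were called higher). It read 11.81 and 11.84 in MN1VP16, 10.93 and 10.70 in MN1, and 12.12 and 11.96 in Gr1Mac, so MN1 was low as for Tapbp (rise in MN1VP16 1.01 ± 0.17, limma adjusted p = 0.0381). Leaving out any 1 of the 6 arrays ended this call, with limma adjusted p from 0.0534 to 0.26. Calreticulin (Calr), a lectin chaperone of the loading complex, read 11.97 and 12.70 in MN1VP16, 12.05 and 11.98 in MN1, and 10.42 and 10.27 in Gr1Mac. Here Gr1Mac was the low group, with MN1VP16 higher by 1.99 (limma adjusted p = 0.0204) and MN1 by 1.67 (limma adjusted p = 0.00598). The glucosidase subunit Prkcsh and the translocon subunit Sec61a1 rose against Gr1Mac in both retroviral groups, in MN1VP16 by 0.99 and 0.88 and in MN1 by 1.06 and 0.82. Canx (calnexin, 1.04) and Ganab (0.61) also rose in MN1, and Tmed10 fell there by 1.22. In MN1VP16 the calls of Prkcsh and Sec61a1 held only without Gr1Mac array 1 when single arrays were left out, with limma adjusted p up to 0.15 and 0.141 in the other fits, and that of Calr was lost without Gr1Mac array 2 (limma adjusted p = 0.0902). In MN1, Calr and Tmed10 kept their calls whichever array was left out, and Prkcsh lost its call only without MN1 array 2. Canx lost its call without either MN1 array or Gr1Mac array 1, and Sec61a1 without either MN1 array or Gr1Mac array 2. That of Ganab held only without Gr1Mac array 1.

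Among 9 measured constitutive proteasome genes and activators, 0 were called in either comparison of MN1VP16, and Psmf1, a proteasome inhibitor, rose in MN1 relative to Gr1Mac by 1.03 (limma adjusted p = 0.0281), a call lost without either MN1 array or Gr1Mac array 2. Of other peptidases that trim or destroy peptides, 7 measured of 9, 5 were called higher and 1 lower in MN1 than in Gr1Mac (17.3% and 12% of all genes). Thop1, which degrades class I peptides in the cytosol, read 6.89 and 7.09 in MN1VP16, 8.34 and 8.50 in MN1, and 5.42 and 4.69 in Gr1Mac. It fell in MN1VP16 relative to MN1 by 1.43 ± 0.27 (limma adjusted p = 0.0476), opposite in direction to the called members. That call was lost when any array of MN1VP16 or MN1 was left out. The difference was -0.59 over the mean of all its probe sets (limma adjusted p = 0.0576). Against Gr1Mac, at background, MN1VP16 was at least 2.23-fold and MN1 at least 6.00-fold higher. Lap3, a leucine aminopeptidase, was higher than in Gr1Mac by 2.02 in MN1VP16 and 3.04 in MN1, and Blmh (1.31) and Ide (1.44) rose in MN1. Tpp2 was called there too (0.50) but kept no call with any 1 array left out, and its difference was -0.17 once probe sets with the suffixes _a_at, _s_at and _x_at were left out. Npepps, a cytosolic aminopeptidase, fell against Gr1Mac by 1.01 in MN1VP16 and 1.41 in MN1. The calls of Thop1, Lap3 and Npepps between MN1VP16 and Gr1Mac held only without Gr1Mac array 1 when single arrays were left out. Between MN1 and Gr1Mac these 3 held in 6 of 6 such fits, while Blmh and Ide lost their calls without either MN1 array.

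Markers of cell types moved with several of these results. The monocyte and macrophage markers, 8 measured of 10, averaged 11.25 and 10.30 in MN1VP16, 8.21 and 7.996 in MN1, and 11.13 and 10.32 in Gr1Mac. Csf1r, Ccr2, Klf4, F13a1 and Ms4a6c, 5 of the 8, rose in MN1VP16 relative to MN1 (1.15% of all genes). In MN1 relative to Gr1Mac 7 of 8 fell (12% of all genes), and 0 were called between MN1VP16 and Gr1Mac. This is the order of B2m and Tapbp, with MN1 low, and not that of H2-M3 or Nlrc5, whose MN1 and Gr1Mac arrays overlapped. Within groups the order was the reverse in MN1VP16, where the markers were higher on array 1 and all members higher on array 2. In MN1 and Gr1Mac, markers and members ran the same way, with the markers higher on array 1, as were 7 of 10 members in MN1 and 9 of 10 in Gr1Mac. The erythroid markers, 8 of 10, averaged 9.09 and 8.09 in MN1VP16, 10.80 and 11.29 in MN1, and 6.48 and 6.37 in Gr1Mac. Of these, 5 of 8 fell in MN1VP16 relative to MN1 (2.7% of all genes). Without MN1 array 2 none of these monocyte and erythroid calls between MN1VP16 and MN1 held, in a fit that called 0.0165% of all genes higher and 0.126% lower. The part of cell makeup in the members' differences was not tested.

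The B cell markers, 9 of 10, averaged 6.20 and 6.54 in MN1VP16, 5.31 and 5.34 in MN1, and 5.56 and 5.25 in Gr1Mac, with Cd79a called between MN1VP16 and MN1 and Pax5, Ebf1 and Blk at or under 5.84 on all arrays. The call of Cd79a held only without MN1VP16 array 1 when single arrays were left out. Relative to Gr1Mac, 8 of 9 lay higher in MN1VP16 (50% of all genes). Vpreb1 and Igll1, parts of the pre-B cell receptor, were called higher, beside 3.66% of all genes. With an array of MN1VP16 or Gr1Mac left out, the call of Vpreb1 held only without MN1VP16 array 1, and that of Igll1 in no fit. Centred over the 6 arrays, the B cell markers averaged 0.50 and 0.85 in MN1VP16, -0.39 and -0.36 in MN1, and -0.14 and -0.45 in Gr1Mac, where the 10 class I processing genes averaged 0.36 and 0.89 in MN1VP16, -0.40 and -0.45 in MN1, and 0.16 and -0.56 in Gr1Mac. Both list means were thus highest on the MN1VP16 arrays with array 2 on top, which is also the order of H2-M3 and Nlrc5. Single B cell markers did not all keep that order. On MN1VP16 arrays 1 and 2, Cd79b read 8.74 and 8.46, Igll1 7.89 and 7.72, and Ebf1 4.36 and 4.23, while the rest read higher on array 2. The part of B cells in the members' differences was not tested. The T and NK cell markers, 8 of 10, averaged 6.12 and 6.32 in MN1VP16, 5.90 and 5.83 in MN1, and 6.48 and 6.44 in Gr1Mac, with 0 called between MN1VP16 and MN1 and Cd3g and Ncr1 at or under 5.84 throughout. Nkg7, a cytotoxic granule gene on that list chosen after its values were seen, read 12.05 on MN1VP16 array 2 and 8.82 to 9.82 elsewhere. The rest of the list did not share that rise. On MN1VP16 arrays 1 and 2, Gzma read 6.43 and 5.32, Cd8a 6.39 and 6.31, and Cd3e 6.55 and 6.78. Neutrophil markers, 8 of 10, averaged 13.81 and 13.56 in MN1VP16, 13.49 and 12.70 in MN1, and 14.35 and 14.47 in Gr1Mac, highest in the sorted granulocytes and monocytes. Ly6g, the main target of Gr1 antibodies, was not analysed here.

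Nlrc5, which had the widest range of group means among the members (2.07), was set against every other gene by the root mean square distance between profiles centred over the 6 arrays. The median distance over all genes was 1.16. The nearest were Cfb (0.365), a complement factor, Mansc1 (0.375), Mzb1 (0.416), a secretory chaperone of B cells, Fam43a (0.424) and H2-M3 (0.433), itself a member. Cfb read 6.07 and 7.43 in MN1VP16, 4.78 and 4.80 in MN1, and 5.29 and 4.99 in Gr1Mac, highest on MN1VP16 array 2 like Nlrc5. Of the other members, Tap1 was next (0.588, with 24 genes nearer) and Tap2 the farthest (1.13). The likeness rests on 6 arrays that share their groups and is a description only.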

How the data were processed

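The values are log2 expression levels of probe sets as the authors deposited them. RMA made them, per the submitters' processing notes, and its version is not given in the sources used here. The method brings all arrays to 1 distribution, which hides any change in RNA content per cell, and it compresses the differences of dim genes. Array medians were 5.36 to 5.43. Of 45101 lines, 64 were control features, and 34945 probe sets named 1 gene, 932 several and 9160 none. Only those naming 1 gene were used. Symbols were checked through RefSeq, which matched 34741 and changed 0. Each gene was read from its probe set with the highest mean, giving 18193 genes.

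Groups were compared with limma 3.58.1 in R 4.3.3 (lmFit, eBayes) on all 6 arrays, with group as the term, 3 residual and 3.03 prior degrees of freedom. P-values were Benjamini-Hochberg adjusted over all genes in a comparison, and a gene was called at adjusted p under 0.05. A fold is the back-transformed difference. For a called gene with a group mean of 5.84 or less, its fold is a lower bound, "at least", from the brighter mean over the higher of 5.84 and each dim array's reading. The fit was checked on simulated data. With 2 arrays a group, an exact permutation test cannot go below p = 0.333. For arrays, their number limits the precision.

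The members, the 7 pathway lists and 10 marker lists were chosen with earlier results of these data known. Named were all members, the called genes of each list, Psmb5, Psmb6, Psmb7, Xist, Kdm5d, Mn1 and the 5 profiles nearest to Nlrc5, besides genes said to be chosen after their values were seen. Uncalled single markers named for their readings were likewise chosen after those were seen. Alternatives covered probe set choice, a filter on dim genes, the prior, rescaling, blocks for replicate number, sex pattern and control features, fitting 2 groups alone, and leaving out each array. The replicate numbers did not pair arrays: the correlations of same-numbered deviations were -0.0461 (MN1VP16 and MN1), 0.0804 (MN1VP16 and Gr1Mac) and -0.0485 (MN1 and Gr1Mac).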

Additional observations from a re-analysis of the deposited data

How the results depend on the processing

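For the members, 432 of the differences recomputed under an alternative kept direction and side of the threshold, 44 lost the call, 4 gained one and 21 changed sign. Most differences were uncalled to begin with, and the 44 losses all fell on the few called ones. These tallies and those below hold some fits more than once. Leaving out either array of the group not compared gives the fit of only the 2 groups. Against Gr1Mac, the sex block gives the fit without the Gr1Mac array of the other sex pattern. Between MN1VP16 and MN1, H2-M3 kept its sign in 17 of 17 alternatives and its call in 9, Tapbp in 17 of 17 and 9, and B2m in 16 of 16 and 6. Against Gr1Mac, H2-M3 in MN1VP16 kept its call in 8 of 17. In MN1, B2m kept it in 11 of 16 and Tapbp in 13 of 17. Members called numbered 3 (MN1VP16 minus MN1), 1 (MN1VP16 minus Gr1Mac) and 2 (MN1 minus Gr1Mac). For MN1VP16 minus MN1 they became 0 with arrays centred on their medians, with the replicate block, with the sex pattern as a block and with the control feature split as a block. For MN1VP16 minus Gr1Mac they became 0 with centring, the replicate block, the control split block or only the 2 groups. The last 2 of these also called fewer of all genes, as given below. The sex block is there the fit without Gr1Mac array 1, so its calls are not set beside those of the full fit. For MN1 minus Gr1Mac they became 1 once probe sets with the suffixes _a_at, _s_at and _x_at were left out, which drops B2m, Tap2 and Psmb8. They became 0 with the control split block, and the sex block is there the fit without Gr1Mac array 2. The replicate block changed no member's call in MN1 minus Gr1Mac. With centring, the adjusted p between MN1VP16 and MN1 was 0.0543 for H2-M3, 0.0535 for B2m and 0.0544 for Tapbp, and with the replicate block 0.0576 for all 3.

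With each array left out in turn, members called ranged from 0 to 2, 0 to 3 and 0 to 2 in the same order of comparisons, and the members' median difference from 0.83 to 1.28, 0.31 to 1.32 and -0.59 to 0.31. Genes called, 701, 1050 and 5334, ranged from 26 to 498, 49 to 1243 and 2418 to 5129. Every probe set as a feature gave 1138, 1900 and 9277 calls, the control split block 203, 441 and 1486, and only the 2 groups 454 and 347 in the comparisons of MN1VP16 with MN1 and Gr1Mac. With the sex block, which between MN1VP16 and MN1 rests on the pair of Gr1Mac arrays, 0 genes were called there and the members' medians were 1.85, 1.32 and -0.59. The cause of these shifts was not tested, beyond fewer arrays or more features by construction.

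Sign changes were all in uncalled differences. For MN1VP16 minus MN1, Tap2 was 0.10 with the sex block. For MN1VP16 minus Gr1Mac, Tap2 was 0.082 with the sex block and 0.12 with the control split block, and ranged from -0.31 to 0.12 with arrays left out, while B2m ranged from -0.11 to 0.40. For MN1 minus Gr1Mac, Psmb8 was 0.11 with the mean of all probe sets, Tap2 -0.021 and Psmb10 -0.58 with the sex block, and H2-M3 0.14, Tap1 0.34, Psmb8 0.27 and Nlrc5 1.33 with the control split block. With arrays left out there, H2-M3 ranged from -0.60 to 0.29, Tap1 from -0.62 to 0.29, Psmb8 from -0.59 to 0.43, Nlrc5 from -0.58 to 0.52, Psmb10 from -0.58 to 0.77 and Tap2 from -0.021 to 0.34.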

Other observations

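The marker lists not described above gave the following levels, averaged over each list. Stem and progenitor markers, 10 measured of 10, averaged 9.44 and 8.99 in MN1VP16, 10.26 and 10.45 in MN1, and 6.45 and 6.45 in Gr1Mac. Kit, a cytokine receptor of progenitors, and the transcription factor Hlf fell in MN1VP16 relative to MN1, by 1.43 and 3.19 (limma adjusted p = 0.0408 and 0.004). Mast cell and basophil markers, 9 of 10, averaged 8.73 and 7.88 in MN1VP16, 9.29 and 9.79 in MN1, and 6.36 and 6.11 in Gr1Mac, and Gata1 fell in MN1VP16 relative to MN1 by 3.09 (limma adjusted p = 0.0354). Unlike the class I processing genes, these lists stood lowest in Gr1Mac on both arrays.

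Dendritic cell markers, 9 of 10, averaged 6.22 and 5.76 in MN1VP16, 6.43 and 6.37 in MN1, and 6.03 and 5.90 in Gr1Mac, and the chemokine receptor Ccr9 was at least 4.22-fold lower in MN1VP16 than in MN1 (limma adjusted p = 0.0237). Megakaryocyte and platelet markers, 8 of 10, averaged 7.18 and 6.21 in MN1VP16, 7.12 and 6.85 in MN1, and 6.35 and 6.32 in Gr1Mac, with 0 called between MN1VP16 and MN1 by limma. Stroma and endothelium markers, 10 of 10, averaged 5.62 and 5.82 in MN1VP16, 5.88 and 5.69 in MN1, and 5.62 and 6.01 in Gr1Mac, and Plvap fell in MN1VP16 relative to MN1 by 2.62 (limma adjusted p = 0.00991). With single arrays left out, the call of Hlf held throughout, and that of Plvap was lost only without MN1 array 2. That of Ccr9 was lost without either MN1 array or MN1VP16 array 2. The call of Kit was lost when any array of MN1VP16 or MN1 was left out. That of Gata1 held only without MN1VP16 array 1 or without MN1VP16 array 2. The part of these cell types in the class I results was not tested.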
